A study of Homo sapiens with 3 samples.

Results

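Accessible chromatin was examined at the nuclear genes for proteins of the mitochondrial ribosome in neurons made from a human stem cell line. The genes were chosen by name, with earlier results of these data known. The set is every protein-coding gene whose RefSeq symbol is MRPL or MRPS followed by digits and an optional letter. That rule uses no measured value. This gave 77 genes among 20037 protein-coding genes, 49 with an MRPL symbol and 28 with an MRPS symbol. They lie on 21 chromosomes, all of them autosomes, with 8 each on chromosomes 1, 2 and 17. The cells were KOLF2.1J, an established clonal induced pluripotent stem cell line, carrying human NGN2, a neurogenic transcription factor that drives stem cells to a neuronal fate, and were collected on day 14 of differentiation. All 3 samples are biological replicates of that 1 line under that 1 condition, so the values describe 1 genotype and no control group was analysed here. ATAC-seq was used, in which the Tn5 transposase inserts adapters into accessible DNA. The authors combined the 3 samples into 1 list of accessible intervals, which carries no value per sample: no spread between replicates and no test between groups can be given, and each comparison is a description of positions within this list.

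The mitochondrial ribosome translates the few messenger RNAs encoded by mitochondrial DNA, all of which code for subunits of the respiratory chain and ATP synthase. Its RNAs come from mitochondrial DNA, whereas its proteins are encoded in the nucleus, made in the cytosol and imported. The large subunit holds the peptidyl transferase centre and the exit tunnel, and the small subunit binds the messenger RNA and holds the decoding centre. Some of the proteins have counterparts in bacterial ribosomes and others occur only in mitochondrial ribosomes. Neurons depend heavily on oxidative phosphorylation. Nuclear genes for mitochondrial proteins are known targets of NRF1, of GABP, a member of the ETS family, and of YY1.

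The list held 145092 summit entries in 65234 distinct intervals. Each interval is described by the summit with the highest −log10 p, by its width, and by the authors' fold enrichment, a linear ratio. This ratio is read here as the tags at the summit over a background level of tags. How that level was set is not known here. The number of tags at each summit was recovered from the deposited ratio and −log10 p. A gene was counted as having a region at an end when a summit lay within 1 kb of either outer end of its RefSeq span. Of the neuronal markers, 8 of 11 (72.7%) had a region at an end, MAP2 and DCX among them, against 66.7% of all protein-coding genes. The 8 had a median fold enrichment of 7.60, from 3.24 at ELAVL3 to 10.8 at SYN1. TUBB3, ELAVL4 and RBFOX3 had no region at an end, although their spans hold the summits of 3, 2 and 13 regions. Of 4 glutamatergic markers, NEUROD1 and SLC17A6 had one, at 5.14 and 4.27. NEUROD2 and SLC17A7 had no region at an end and no summit inside the span. Of the pluripotency markers only LIN28A had one, at a fold enrichment of 3.04, and POU5F1, NANOG, DPPA4 and ZFP42 had none at an end. The span of DPPA4 holds the summits of 2 regions, and those of POU5F1, NANOG and ZFP42 hold none. The GABAergic markers GAD1, GAD2 and SLC32A1 all had one, at 2.89, 5.08 and 2.48. So did the glial markers AQP4, OLIG1 and OLIG2 of 6 listed, at 2.83, 6.68 and 6.76. GFAP, MBP and SOX10 had none at an end. The span of MBP holds the summits of 7 regions, and those of GFAP and SOX10 hold none. In a bulk sample, accessibility in fewer cells and weaker accessibility per cell cannot be told apart.

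A region lay at an end of 75 of the 77 mitochondrial ribosomal protein genes (97.4%, Wilson 95% interval 91.0 to 99.3%). Over all protein-coding genes the share was 66.7%. All 28 MRPS genes had a region, as did 47 of the 49 MRPL genes. The intervals cover counting error over genes only. The 2 exceptions were MRPL24 and MRPL44, which encode proteins of the large subunit, and in both the region lay at a start inside the annotated span. MRPL24 has its RefSeq promoter start at position 156741088 of chromosome 1, 1628 bp inside the outer end, and a region from 156740573 to 156741782 had its summit 131 bp from that start. Its fold enrichment was 13.4, with 1708 tags at the summit. The start listed for MRPL44 is at 223957463 on chromosome 2, 6609 bp inside the outer end. The region there spans 223957086 to 223957948, and its summit, 108 bp from the start, reached a ratio of 14.2 and 1101 tags. Both genes thus had a strong region at a start that the outer ends miss. With RefSeq starts used in place of outer ends, an alternative added later, all 69 members in the promoter table had a region, against 71.2% of all protein-coding genes in that table.

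The regions lay at the starts of the genes and seldom at the other end. The promoter table gives the strand of 69 of the 77 genes. The outer end at the start had a region in 67 of these 69 (97.1%, Wilson 95% interval 90.0 to 99.2%), against 66.9% of 15843 protein-coding genes with a strand. The far end had one in 6 of 69 (8.70%, interval 4.05 to 17.7%), close to the 7.68% of all protein-coding genes. All 61 genes of known strand with a region at exactly 1 end had it at the start. Summits sat just upstream. Over the 67 members, the summit lay at a median of -30 bp from the outer start, with quartiles at -80.5 and -10.5 bp, and 53 of 67 (79.1%) were within 100 bp of it. For 10409 protein-coding genes with a region at the start the summit lay at a median of -49 bp (quartiles -103 and 4 bp), and 57.0% were within 100 bp.

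**Figure D1:**
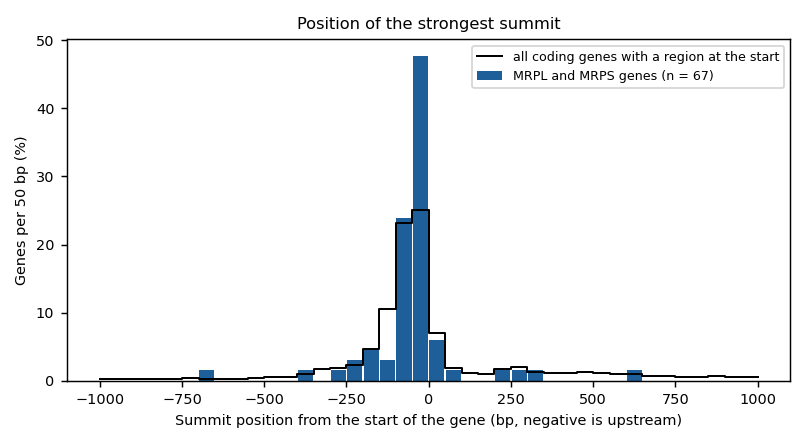
Distance in bp of the strongest summit from the outer start of the gene (horizontal; negative is upstream) and share of genes per 50 bp in percent (vertical). Bars are 67 MRPL and MRPS genes and the line is the 10409 protein-coding genes with a region at the start; 79.1% of the former and 57.0% of the latter are within 100 bp.

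Among the summits farthest from the start were those of MRPL51 at -685 bp and MRPS2 at 643 bp. In both genes a neighbour or a second start is close. MRPL51 lies 840 bp from the start of NCAPD2, a condensin subunit, on the opposite strand. MRPS2 has a second RefSeq start at position 135500682 of chromosome 9, which is 74 bp from the summit.

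Regions at both ends were found for 7 of the 77 members (9.09%), where all protein-coding genes gave 5.36%. The short genes MRPL41 with a span of 677 bp and MRPL53 with 699 bp reach both ends with the same region. The other 5 had separate regions. At MRPL45, whose protein lies at the exit tunnel and contacts the inner membrane, the region at the start had a fold enrichment of 15.2 and 1222 tags, and the one at the far end 3.90 and 117 tags. MRPL50 had 17.2 at the start and 5.53 at the far end, and MRPL4 had 12.5 and 6.74. In these 3 genes the start had the stronger region by fold enrichment. The far end of MRPS18B carried 11.5, against 13.0 at its start, and lies 482 bp from the start of ATAT1, an alpha-tubulin acetyltransferase. For MRPL2, which has no promoter entry, the 2 ends gave 9.31 and 14.0, and each lies close to another gene, CUL7 and KLC4.

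Fold enrichment at the ends of these genes was above that of most genes, with quartiles close together. The median over the 75 genes was 13.0, with quartiles at 11.5 and 14.6 and a range of 2.70 to 17.5. All 13367 protein-coding genes with a region had a median of 10.6, with quartiles at 7.13 and 13.4. Of the 75 genes, 62 (82.7%) were above 10, against 54.6% of all. The upper quartile of all genes was exceeded by 34 of the 75, and 5 fell under the lower quartile. Every one of the 75 regions had the top score of 1000, which 95.5% of regions at protein-coding genes reached. Tags at the summit had a median of 1026, with quartiles at 773 and 1274.5, where all protein-coding genes with a region had 957, with quartiles at 517 and 1437. The background, recovered with the tags from the ratio and −log10 p, had a median of 81.6 tags, against 86.9 for all.

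**Figure D2:**
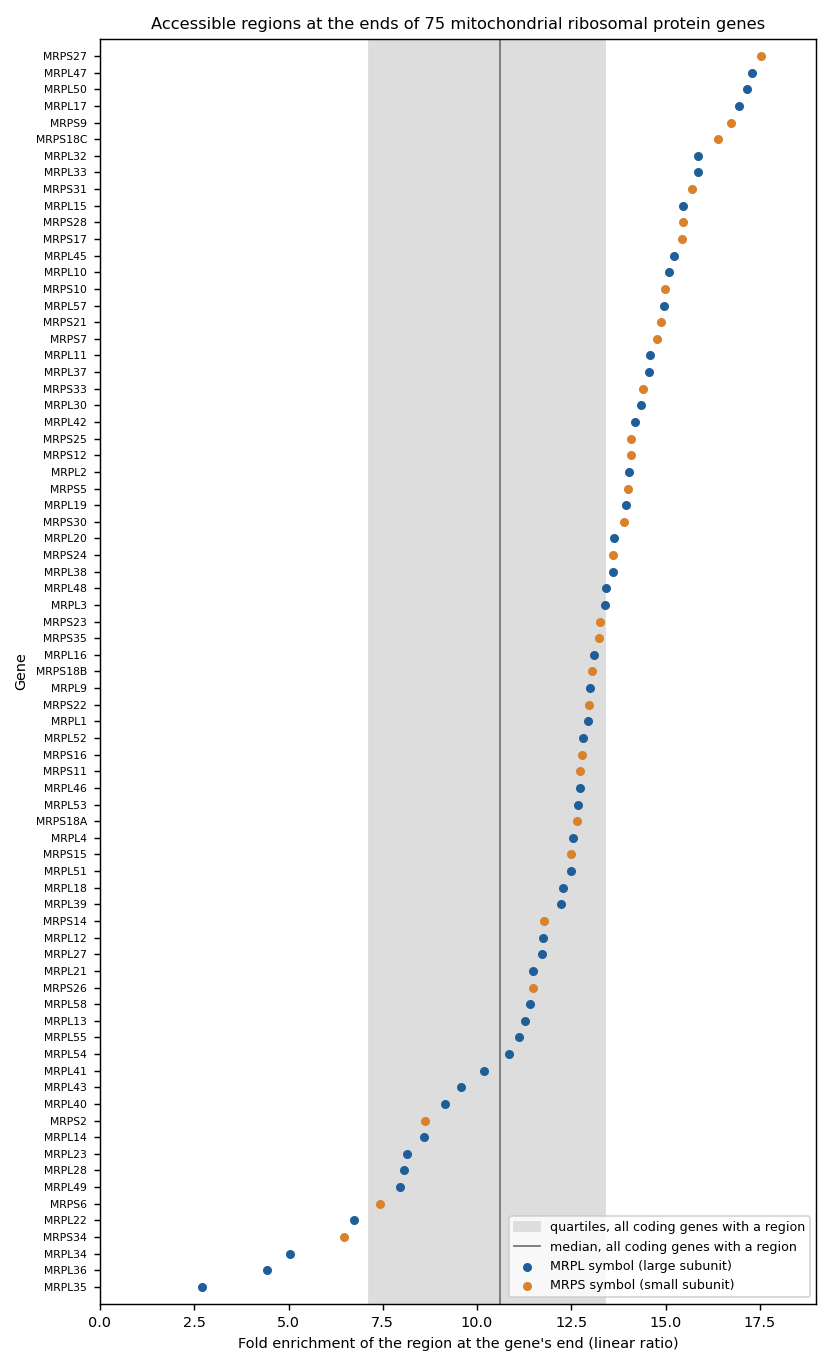
Fold enrichment (linear ratio, horizontal) of the region at an end of each of the 75 genes with one, ordered by value; blue points have MRPL symbols and orange points MRPS symbols. The grey band spans the quartiles of all 13367 protein-coding genes with a region (7.13 to 13.4) and the line is their median of 10.6; 62 of the points lie above 10.

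In the large subunit, the 47 MRPL genes with a region had a median fold enrichment of 12.7, with quartiles at 11.0 and 14.3. MRPL47, whose protein sits near the exit of the tunnel, stood at 17.3 with 1355 tags (exact Poisson 95% interval 1284 to 1429). MRPL50, which encodes a protein found only in mitochondrial ribosomes, reached 17.2 with 2025 tags (interval 1938 to 2115), and MRPL17, a gene with a bacterial counterpart, 16.9 with 2555 tags (interval 2457 to 2656). These 3 were the highest of the large subunit and lay above percentile 97 of all protein-coding genes with a region. MRPL12, whose product forms the flexible stalk that recruits translation factors, had 11.8 and 839 tags. MRPL10 and MRPL11, which encode proteins of the stalk and its base, had 15.1 and 14.6. MRPL58, a peptidyl-tRNA hydrolase built into the subunit that releases stalled chains, had 11.4. The stalk genes MRPL10 and MRPL11 thus lay above the upper quartile of all genes, and MRPL12 and MRPL58 were closer to the middle.

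Of the 5 lowest values, 4 were also of MRPL genes and the other was of MRPS34. MRPL35 had the lowest value of all, 2.70, at a region of only 247 bp from 86199339 to 86199585 on chromosome 2. Its summit held 439 tags (interval 399 to 482) over a background of 162 tags. That background was about as high as at MRPL18 (181 tags) and above the median of 81.6. MRPL36 followed with 4.42 and 400 tags, and MRPL34 with 5.04 and 180 tags. For the last 2 the outer end is not the only start. The start of MRPL36 in the promoter table lies 1452 bp from the nearest outer end, in a region that reached a ratio of 8.93 and 825 tags. MRPL34 has 3 inner starts on chromosome 19. Those at 17305653 and 17305872 share a region from 17305317 to 17306427 with 7.41 and 1602 tags, and the one at 17302865 has a region from 17303165 to 17303694 with 5.95 and 964 tags. By tags, both inner regions of MRPL34 were thus stronger than the one at its outer end. Their backgrounds of 215 and 161 tags were also higher than the 34.9 at the outer end. MRPL22, whose protein lines the exit tunnel, had 6.73 and 593 tags at its 1 start.

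In the small subunit, the 28 MRPS genes had a median of 13.8, with quartiles at 12.7 and 14.9 and a range of 6.48 to 17.5. The difference between the subunits was not tested. MRPS27 had the highest value of all 75 genes, 17.5, at a region from 72319724 to 72320826 on chromosome 5 with 1542 tags (interval 1466 to 1621). MRPS9 had 16.7 and 1967 tags. MRPS12, whose protein is part of the decoding centre, had 14.1 and 1890 tags. At the other end, MRPS34 had 6.48 and 672 tags, and MRPS6 had 7.42 and 819 tags at a start shared with SLC5A3, an inositol transporter gene. MRPS18A and MRPS30 carry MRPS symbols although their proteins sit in the large subunit. Moving them left the large subunit at 12.7 and the small at 13.8.

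Genes listed as having a bacterial counterpart and the other members, taken as specific to mitochondria, had near equal values. The list puts MRPS18C with the former, and MRPS18A and MRPS18B with the latter. A region was present at 45 of the 46 genes of the first kind and 30 of the 31 of the second. Their median fold enrichments were 13.1 and 13.0, and their median widths 1156 and 1214 bp. Median tags were 953 and 1149.5, with overlapping quartiles (742 to 1178 and 964 to 1425).

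The regions were of moderate width. They measured 1194 bp at the median, and the quartiles were 1084 and 1305.5 bp. All protein-coding genes with a region had a median of 1314 bp and quartiles of 1099.5 and 1566 bp. Of the 75 regions, 6 (8%) were wider than the upper quartile of all genes and 21 (28.0%) narrower than the lower one. The widest were at MRPL40 (2162 bp), MRPL14 (2117 bp), MRPL18 (1759 bp), MRPL39 (1735 bp) and MRPS2 (1706 bp). MRPL40, MRPL14, MRPL18 and MRPS2 each share the start with another coding gene, and MRPL39 has no such neighbour. The narrowest, besides MRPL35, were at MRPL28 (394 bp), MRPS10 (632 bp), MRPL49 (743 bp) and MRPL54 (746 bp). By fold enrichment MRPS10 stood at 15.0. MRPL54 (10.9), MRPL28 (8.06), MRPL49 (7.97) and MRPL35 (2.70) were below the members' lower quartile of 11.5. By tags, MRPL54 with 1459 and MRPL49 with 1188 were above the members' median of 1026. MRPS10 (781), MRPL28 (511) and MRPL35 (439) were below it. Across the 75 genes, width and fold enrichment had a Spearman correlation of -0.04, and fold enrichment and tags 0.56. These are descriptions across genes, which share the libraries and are not replicates.

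Motif words were then counted in the RefSeq promoter sequences of assembly GRCh38.p14, which run from 250 bases before each start to 50 bases from it. Of the 77 members, 69 matched an entry, with 85 windows in all. The others were MRPL2, MRPL10, MRPL13, MRPL15, MRPL21, MRPL23, MRPL35 and MRPS28. A gene was counted when any of its windows held the word on either strand. The ETS word, CCGGAAG, the core bound by GABP and other ETS factors, was found in 30 of 69 members (43.5%, Wilson 95% interval 32.4 to 55.2%). It was found in 16.5% of all 15843 protein-coding genes in the table and in 21.2% of the 10942 among them with a region at an end. The YY1 word, AAGATGGC, was found in 21 of 69 members (30.4%, interval 20.8 to 42.1%), against 4.66% and 6.06%. At least 1 of these words was in 43 of 69 members (62.3%), against 25.7% of genes with a region, and 8 members (11.6%) had both, against 1.62%. For cytosolic ribosomal protein genes the ETS word was in 23 of 64 (35.9%) and the YY1 word in 6 of 64 (9.38%). A match is a description of letters and not a bound site. The word counts have no test.

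The other words had shares nearer to those of all genes. The NRF1 word, GCGCA and GCGC with any 1 base between them, was in 9 of 69 members (13.0%), against 9.67% of all genes and 12.8% of those with a region. The SP1 word, GGGCGG, was in 42 (60.9%), against 64.3% and 75.9%. The NFY word, CCAAT, was in 23 (33.3%), against 42.1% and 42.9%. Counted per gene, these 3 words were about as common in the members as elsewhere, or less so. Per promoter window they were in 11.8%, 60.0% and 32.9% of the members' windows, against 7.39%, 56.3% and 34.7% of all windows. The TATA box word, TATAAA, was in 3 members (4.35%), against 12.4% and 8.74%. The CREB word, TGACGTCA, was in 1 member, against 3.00% and 3.74%, and the ZNF143 word, ACTACAA and TCC with any 1 base between them, in 2 members, against 1.79% and 2.43%. Different words overlapped at 1 place in the members. Base composition was similar: the median GC content was 60.3% in member windows, 62.3% in all windows and 64.7% in windows of genes with a region.

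**Figure D3:**
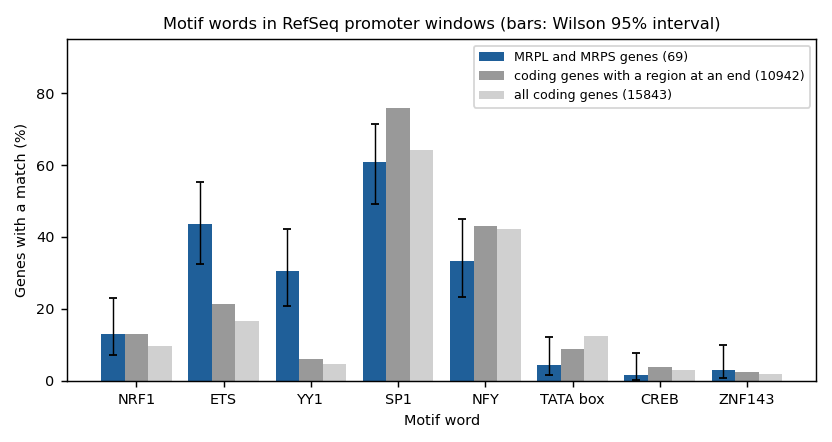
Share of genes in percent (vertical) with a match to each of 8 motif words (horizontal) in their RefSeq promoter windows. Blue bars are 69 MRPL and MRPS genes with Wilson 95% intervals, dark grey bars 10942 protein-coding genes with a region at an end and light grey bars all 15843; ETS (43.5%) and YY1 (30.4%) stand above both grey bars.

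The YY1 word had a preferred place and direction. Of its 22 matches in members, 18 were on the strand of the gene and 16 began after the start. All 22 were inside an accessible region, 16 of them within 100 bp of its summit. Nearly all matches of other words were also inside a region, 10 of 10 for NRF1, 103 of 104 for SP1 and 36 of 37 for NFY. Of these, 9, 67 and 25 lay within 100 bp of the summit. A match inside a region was thus not particular to the YY1 word. Counting only the gene's own strand after the start, a restriction chosen after the positions had been seen, 16 of 69 members had the word (23.2%, interval 14.8 to 34.4%), against 2.50% of all genes and 3.43% of genes with a region. Of the 21 members with the word in a window, 16 had it so placed. The same held for 396 of all 739 coding genes with the word, and for 375 of the 663 with a region. This placement was thus also common outside the members. The word contains ATG, and whether that is the start codon was not examined. The following stretches of 30 bases are shown because they carry this word, in capitals, at a like distance from the start in genes of both subunits. Each reads 5′ to 3′ on the strand of the gene, from RefSeq, GRCh38.p14.
MRPS27 (chr5:72320206-72320235, minus strand): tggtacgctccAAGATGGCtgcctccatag
MRPL50 (chr9:101398577-101398606, minus strand): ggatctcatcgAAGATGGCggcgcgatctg
MRPL45 (chr17:38297170-38297199, plus strand): tttgcgggaacAAGATGGCagcccccatac
MRPS10 (chr6:42217834-42217863, minus strand): tcgggaccggcAAGATGGCggcgcggacag
MRPS7 (chr17:75261887-75261916, plus strand): cgtggccagccAAGATGGCtgcccccgcag
MRPL49 (chr11:65122333-65122362, plus strand): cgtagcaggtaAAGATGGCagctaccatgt
MRPL20 (chr1:1407260-1407289, minus strand): ccgacccgggcAAGATGGCagcggcgctgc
MRPL22 (chr5:154941093-154941122, plus strand): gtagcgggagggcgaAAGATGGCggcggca
Counted from 1 at the RefSeq start of each window, the word began at position 17 in MRPS27, 24 in MRPL50, 14 in MRPL45, 10 in MRPS10, 20 in MRPS7, 24 in MRPL49, 16 in MRPL20 and 36 in MRPL22. MRPS27 and MRPL22 both carry the word although their regions were near opposite ends of the range, at 17.5 and 6.73. Members with the word had a median fold enrichment of 13.6 (21 genes) and those without it 12.9 (46 genes with a region).

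The ETS word was placed differently. Its 40 matches in 30 members had their middle at a median of -21 from the start and were on the strand of the gene in 18 cases. All 40 were inside an accessible region and 32 lay within 100 bp of its summit. As for the YY1 word, a match inside a region was not particular to this word. The stretches below show the word, in capitals as CCGGAAG or, on the other strand, CTTCCGG, in genes of both subunits, from the same source and again on the strand of the gene.
MRPL47 (chr3:179604660-179604689, minus strand): cggcttgagacgCCGGAAGtgacgctatcg
MRPL3 (chr3:131502986-131503015, minus strand): ttgtaaaacgcaCCGGAAGtgggtccggcg
MRPL27 (chr17:50373175-50373204, minus strand): aacttttcgagaCCGGAAGtgagtgatcga
MRPS16 (chr10:73252622-73252651, minus strand): gcggatcatccgCTTCCGGagtcgaggttt
MRPS12 (chr19:38930927-38930956, plus strand): cacggatagcgcCCGGAAGaggctagaagc
MRPS34 (chr16:1773136-1773165, minus strand): ctcttccggtgaCTTCCGGccggaccgctg
MRPS34 carries 3 such words, of which the stretch above holds another in lower case before the one in capitals, and MRPS22 also 3. Members with the ETS word and without it both had a median fold enrichment of 13.0 (30 and 37 genes). The YY1 word thus lay mostly after the start on 1 strand, and the ETS word mostly before it on either.

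**Figure D4:**
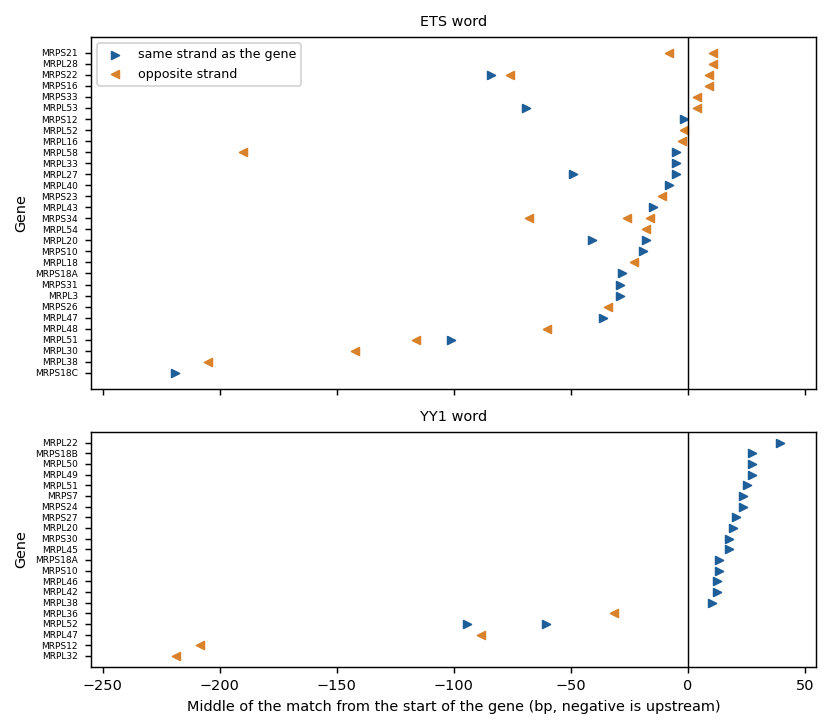
Middle of each match of the ETS word (top, 40 matches in 30 genes) and of the YY1 word (bottom, 22 matches in 21 genes) in bp from the start of the gene (horizontal; negative is upstream), 1 gene per row. Triangles pointing right are on the strand of the gene and triangles pointing left on the other; 16 YY1 matches begin after the start.

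The 2 stretches below, 100 bases directly upstream of the start, come from MRPL17 and MRPL22, the genes with the highest and the lowest fold enrichment among those of this kind: a single RefSeq start, no shared end and a region at the start. Capitals mark any NRF1, ETS or YY1 word.
MRPL17 (chr11:6683341-6683440, minus strand): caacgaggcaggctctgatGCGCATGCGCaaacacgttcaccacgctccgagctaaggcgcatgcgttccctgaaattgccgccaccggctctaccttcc
MRPL22 (chr5:154940973-154941072, plus strand): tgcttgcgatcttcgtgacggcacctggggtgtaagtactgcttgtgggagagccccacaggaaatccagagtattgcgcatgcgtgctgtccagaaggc
MRPL17 holds 1 NRF1 word and MRPL22 none of the 3 words in this stretch. Over the 9 members with the NRF1 word, the regions that hold it ranged from 7.41 at MRPL34 to 16.9 at MRPL17. Whether the word goes with the ratio was not tested. Their GC contents were 61.0% and 57.0%, and their CpG counts 10 and 5.

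Many of these genes start or end beside another coding gene. Of the 154 outer ends, 52 had the end of another protein-coding gene within 1 kb (33.8%, Wilson 95% interval 26.8 to 41.5%), against 16.7% of 40074 ends overall. At least 1 shared end was found in 42 of the 77 genes (54.5%), against 28.5% of all protein-coding genes. Both ends were shared in 10 of the 77. The share of all protein-coding genes with both ends shared is not given here, so this count has no reference. At 2 of the 52 ends the partner was a readthrough gene that contains the member, URGCP-MRPS24 and TPD52-MRPS28. Where both strands are known, outer starts met outer starts in 24 cases, 23 of them on opposite strands. The outer start was shared with another outer start in 24 of 69 members (34.8%, interval 24.6 to 46.6%), against 14.9% of all genes with a strand. Every one of these 24 ends had an accessible region, as did 1 of 10 ends where far ends met. Over all members with a strand, 97.1% of start ends and 8.70% of far ends had one. The 1 far end was that of MRPL53, reached by the region at its own start.

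The partners at the 10 closest shared ends, by gene, had no single kind. Besides both readthrough genes, the closest was SLC5A3 at MRPS6, whose outer starts coincide. MRPL36 and NDUFS6, a subunit of respiratory complex I, have outer starts 27 bp apart, within a region of fold enrichment 4.42. The start of MRPL36 in the promoter table is not this end and lies in another region, at 8.93. EME1, a DNA endonuclease subunit, lay 45 bp from MRPL27, with 11.7 there. MRPL43 and TWNK, the helicase that replicates mitochondrial DNA, have ends 46 bp apart, with 9.57. FAU, which encodes a cytosolic ribosomal protein, lay 49 bp from MRPL49 (7.97). IGHMBP2, a helicase, lay 59 bp from MRPL21 (11.5), and PIERCE1 96 bp from MRPS2 (8.63). At each of these ends with a region the ratio was below the members' median of 13.0. Farther apart, and named after their values were seen, PTCD2, a gene for a mitochondrial RNA-binding protein, lay 133 bp from MRPS27 (17.5) and NDUFB5, another complex I subunit, 148 bp from MRPL47 (17.3). A region at such a place cannot be assigned to 1 of the 2 genes.

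MRPL46 and MRPS11, a large and a small subunit gene on chromosome 15, had starts 320 bp apart and shared a region spanning 88466941 to 88468134, at a ratio of 12.7 with 998 tags. It was the only such pair among the members. The 10 shared far ends included MRPL37 with SSBP3 at 57 bp and MRPL49 with SYVN1 at 92 bp, neither of which had a region. Members with a shared end had a median fold enrichment of 12.7 and those without 13.5. Over all protein-coding genes the order was the other way, 11.6 with and 9.94 without.

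Distal regions, defined by a summit over 1 kb from the outer ends of every annotated gene, were no more numerous near these genes than near others. The median was 2 within 50 kb of an end, with quartiles at 1 and 3, and over all protein-coding genes it was also 2, with quartiles at 1 and 4. No distal region was near 13 of the 77 (16.9%), against 16.8% of all, and at least 5 were near 8 (10.4%), against 15.9%. In all, 174 distinct distal regions lay in reach, with a median fold enrichment of 5.53 and a median of 252.5 tags, where all 48428 distal regions had 5.11 and 201. These 174 include the regions at inner starts of MRPL44, MRPL34 and MRPL36 given above, since only outer ends were used. Without the 15 within 1 kb of a RefSeq start of any gene, the other 159 had medians of 5.47 and 240 tags, against 5.07 and 197 for the 46649 distal regions left. The most were found for MRPS28 with 13 and MRPS27 with 11, which are also among the longest members at 111543 and 100838 bp. MRPL14 and MRPS23 had 7 each, and MRPL46 had 6, the same regions as its neighbour MRPS11. The strongest distal region near MRPS27 spanned 72307914 to 72309004, 11.8 kb from its start, and reached a ratio of 14.4 and 901 tags. Near MRPS28 on chromosome 8, a region from 79963258 to 79963986 had 13.2 and 1195 tags. Both stood well above the median of distal regions.

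Members known for combined oxidative phosphorylation deficiency, a group of inherited disorders of mitochondrial translation, were looked at as a list of 10. A region lay at an end of 9, with a median fold enrichment of 12.8, and the tenth was MRPL44, whose region lay at its inner start as given above. The values were 15.5 for MRPS28, 14.8 for MRPS7, 13.4 for MRPL3, 13.0 for MRPS22 and 12.8 for MRPS16. They were 11.8 for MRPS14, 11.8 for MRPL12, 8.63 for MRPS2 and 6.48 for MRPS34. The list thus spread over most of the range of the members.

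Genes that act with the mitochondrial ribosome were also nearly all accessible at an end. The 5 mitoribosomal proteins under other symbols all had a region: AURKAIP1 at 13.8, PTCD3 at 12.0, DAP3 at 11.8, GADD45GIP1 at 10.9 and CHCHD1 at 7.47. All 10 translation factors had one (median 13.7), as did 16 of 17 mitochondrial aminoacyl-tRNA synthetases (13.9), all 20 assembly factors and rRNA modifiers (13.8) and all 5 genes of mitochondrial DNA transcription (13.9). Together these 4 lists had a region at 51 of 52 genes (98.1%, Wilson 95% interval 89.9 to 99.7%). The exception was FARS2, whose span holds the summits of 8 regions. Of the cytosolic ribosomal protein genes, 80 of 81 had a region, with a median of 12.9.

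The nuclear regulators NRF1, GABPA, GABPB1, YY1, ESRRA, PPARGC1A and PPRC1 all had a region at an end, with a lower median fold enrichment and a greater median width. The median ratio was 9.11, and the values were 12.4 for GABPA, 12.2 for NRF1, 9.79 for YY1, 9.11 for ESRRA, 8.78 for GABPB1, 8.30 for PPARGC1A and 7.78 for PPRC1. All 7 were below the members' median of 13.0. The median width was 1690 bp, against 1194 bp in the members, although PPARGC1A (1084 bp) and YY1 (1135 bp) were narrower than the latter. The median background was 179.5 tags, against 81.6. The tags at their summits had a median of 1581, above the members' 1026, so the order of the 2 groups depends on whether tags or the ratio is read.

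**Figure D5:**
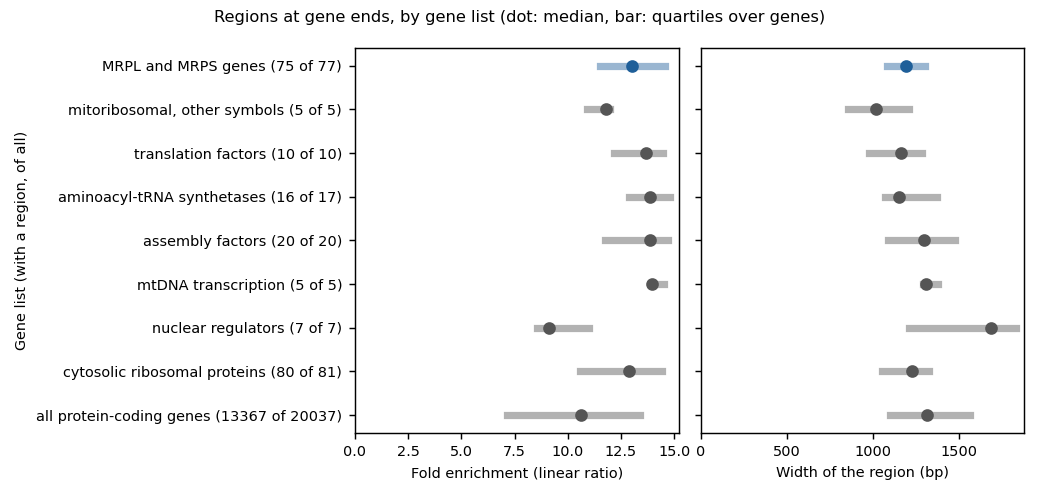
Median (dot) and quartiles (bar) over genes of the fold enrichment (left, linear ratio) and of the width in bp (right) of regions at gene ends, for the gene lists on the vertical axis with the number of genes that have a region. The MRPL and MRPS genes (13.0, 1194 bp) lie near the other mitochondrial translation lists, and the nuclear regulators have the lowest median ratio and the largest median width of the lists shown (9.11, 1690 bp).

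The genome also holds pseudogenes of these genes, where sequence like the coding part lies at another place. The RefSeq table lists 106 pseudogenes named for an MRPL or MRPS gene, a set chosen after the data had been seen, with MRPS21 (9) and MRPL57 (8) having the most. A region lay within 1 kb of an outer end of 3 of the 106 (2.83%, Wilson 95% interval 0.967 to 7.99%), where 5.75% of 17051 annotated pseudogenes had one. The region at MRPL45P2 on chromosome 17 had 15.4 and 1161 tags, close to the 15.2 and 1222 tags at MRPL45. MRPS31P5 on chromosome 13 had 14.9 and 1135 tags, against 15.7 and 1316 tags at MRPS31. MRPS24P1 on chromosome 11 was weak, at 3.49 and 172 tags. None of these 3 summits lay within 1 kb of an outer end of a protein-coding gene. The part of reads shared between near-identical copies was not tested.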

How the data were processed

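ATAC-seq was carried out on 3 samples of 1 group, which the authors combined into 1 peak list, the optimal set by irreproducible discovery rate per the labels. The genome build is hg38, per the submitters' processing notes. The aligner and peak caller are not given in the sources used here. The deposited fold enrichment is a linear ratio per summit, the deposited −log10 p and −log10 q values are those of the authors' peak caller, and the deposited score is a whole number whose scaling is not stated.

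Entries with equal bounds were merged, keeping the summit with the highest −log10 p. Tags were recovered as the whole number that, with a pseudocount of 1 in the ratio, gives the deposited −log10 p under a Poisson upper tail (largest miss 0.00079). The depth of each sample is unknown. PCR reads are not independent molecules, so Poisson intervals cover counting error only. Gene spans, starts and promoter sequences came from RefSeq (GRCh38.p14). Positions count from 1. Shares carry Wilson 95% intervals, and no test was run because the list has no value per sample. Alternatives changed the window, overlap, score minimum, entries counted, ends used, distances between ends and distal span.

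The members and lists were chosen with earlier results of these data known. Genes are named by a rule: members without a region or with 2, the 5 highest and lowest by fold enrichment and width, the 5 with most distal regions, the 10 closest shared ends, deficiency genes, other mitoribosomal proteins and regulators. Other genes named for their role or as a partner were chosen after their values were seen. Python 3.11.15, numpy 2.4.6, pandas 2.3.3, scipy 1.17.1 and matplotlib 3.10.9 were used. On simulated data, 100% of 5000 tag counts and 100% of 2000 end assignments were recovered.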

Additional observations from a re-analysis of the deposited data

How the results depend on the processing

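Of 35 recomputed values for 8 results, 30 stayed within the 95% interval of the value reported (Wilson's for shares, the binomial interval of the median otherwise) and 5 moved. The share of members with a region was 93.5% to 98.7% under the planned settings, which changed the score minimum, the window, the overlap, the entries counted, the minimum fold enrichment and the ends used. It moved to 100% with every RefSeq start, an alternative added after the data had been seen. It was above that of all protein-coding genes in all 9 settings. Median fold enrichment moved from 13.0 to 5.52 when every summit entry at an end was counted, weaker summits of the same regions included, and that of all genes was then 4.50. It was above all genes in all 8 settings, and median width was below all genes in all 8. The share of shared ends moved to 43.5% with 2 kb between ends, and was 32.5% without readthrough genes, an alternative also added later. The median number of distal regions moved to 4 within 100 kb and to 4 with every summit entry, in each case equal to that of all genes. The settings with every entry, 2 kb and 100 kb admit more entries or more sequence than those reported. The one with RefSeq starts covers the 69 genes in the promoter table, and for most of them the start is the outer end. The share for other genes of mitochondrial translation was not recomputed.

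No paired analysis was possible because every deposited value belongs to 1 pooled list, so no replicate was left out either. The outer ends of a gene span can lie far from a RefSeq start, as at MRPL24, MRPL44, MRPL34 and MRPL36, and 8 members have no promoter entry. The depth of each replicate is unknown.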
